A study of Drosophila melanogaster with 6 samples.

Results

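The enzymes of glycolysis were followed in Drosophila melanogaster homozygous for a mutant allele of Sox14, a gene for a transcription factor with a DNA-binding HMG box, at the moment the larva forms its puparium. The 10 genes Hex-A, Pgi, Pfk, Ald1, Tpi, Gapdh1, Gapdh2, Pgk, Pglym78 and Eno were listed, and every probe set that the array's annotation ties to 1 of them alone was taken. This gave 10 probe sets for 9 genes, of 11982 genes measured in this way, with 2 probe sets for Ald1. Gapdh2 had no such probe set and was not analysed here. The 10 probe sets were among 18769 that were tested.

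RNA came from whole animals at 0 h, collected as prepupae and raised at 25 °C. Mutant animals were homozygous for the sox14L1 allele in the w1118 background (w1118; sox14L1/sox14L1), and controls were w1118. Each genotype had 3 arrays, each from 10 pooled prepupae, so variation between single animals was not measured. Separate cultures are not mentioned in the labels, so p-values here measure the spread between these samples, which may be technical. The sources used here do not describe the lesion of the allele or the history of the strain.

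Glycolysis turns glucose into pyruvate and yields ATP and NADH. Its first steps spend ATP to phosphorylate the sugar and split it into triose phosphates, and its later steps, from glyceraldehyde 3-phosphate dehydrogenase on, regain that ATP and more. Larvae of Drosophila, which grow fast on a sugar-rich diet, use glycolysis strongly, and the nuclear receptor ERR is known to switch these genes on before larval life. Animals do not feed during metamorphosis and live on stores laid down by the larva.

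Values are log2 RMA signals, and each change is mutant minus control with its standard error. Called means an adjusted p under 0.05 in limma, with Benjamini-Hochberg adjustment over all 18769 probe sets. RMA compresses changes and fixes no absolute amount, so levels of different genes are not compared. In RNA from whole animals, fewer cells of a type and less RNA per cell cannot be told apart. Sox14 itself read 10.34, 10.67 and 10.73 in the mutant, against 11.40, 11.60 and 11.72 in the control. It was lower in all 3 mutant arrays (change -0.99 ± 0.13, limma adjusted p = 0.00101). The median signal of an array was 6.97 to 7.06. The first mutant array stood apart in the control signal for 18S rRNA, which averaged 12.18 there, against 7.84 and 7.94 on the other mutant arrays and 7.56 to 7.87 on the control arrays.

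The gene for the first step of the pathway rose in the mutant, while 4 genes of later steps fell by smaller amounts. Hex-A rose to a level 1.77 times that of the control, and Tpi, Gapdh1, Pgk and Pglym78 fell to between 0.71 and 0.78 times. Of the 9 genes measured by their brightest probe set, 1 rose, 4 fell and 4 were not called. The single rise is near the share of all genes that rose, 11.3%, whereas 13.4% of all genes fell. Of the 10 probe sets, 1 rose and 4 fell, beside 8.64% and 10.4% of all probe sets. The median change of the 9 genes was -0.33, and that of all genes was -0.03. Without the first mutant array, Hex-A was still called (0.73, limma adjusted p = 0.0150) and 0 of the 4 falls were, with limma adjusted p-values of 0.0539 to 0.0992 and unadjusted p under 0.05 for all 4, while 6.83% of all probe sets rose and 7.83% fell. All 4 kept their sign, at -0.44 to -0.28. No fall was called without the second mutant array or without the third control array either. Tpi, Gapdh1 and Pgk were still called without the third mutant array, Pgk and Pglym78 without the second control array, and none of the 4 without the first control array.

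**Figure D1:**
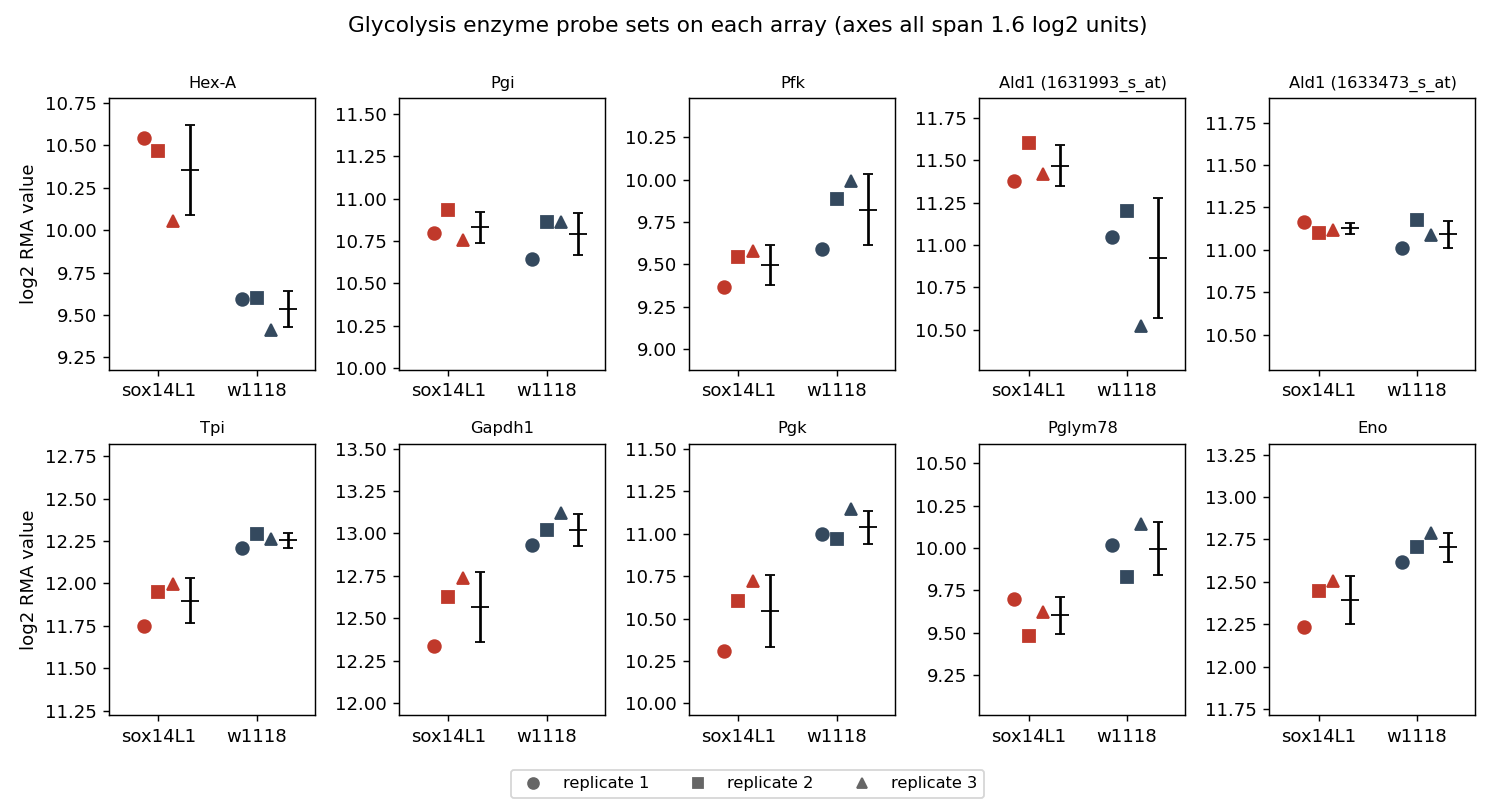
Log2 RMA value (vertical axis) of each glycolysis probe set on the 3 sox14L1 arrays (red, left) and the 3 w1118 arrays (dark, right) of each panel, in pathway order. Symbols mark the replicate number, and bars show the mean ± SD. Hex-A and one Ald1 probe set lie higher in the mutant without overlap, Pfk, Tpi, Gapdh1, Pgk, Pglym78 and Eno lie lower without overlap, and Pgi and the other Ald1 probe set overlap.

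The plot of the values by array shows how cleanly the genotypes separated. The 3 mutant arrays lay above all 3 control arrays for 2 of the 10 probe sets, as they did for 14.9% of all probe sets. They lay below for 6 of the 10, as for 21.3% of all probe sets, and the groups overlapped for 2. The SD between arrays of a genotype ranged from 0.03 to 0.26 in the mutant and from 0.04 to 0.35 in the control, beside medians over all probe sets of 0.11 in mutants and 0.13 in controls.

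Hexokinase phosphorylates glucose on entry into the cell, and Hex-A encodes the main hexokinase of the fly. Hex-A read 10.54, 10.47 and 10.05 in the mutant, against 9.60, 9.60 and 9.41 in the control. All mutant arrays were higher, and the lowest of them was the third. The change was 0.82 ± 0.14 (limma adjusted p = 0.00383), a ratio of 1.77 with a 95% confidence interval of 1.42 to 2.20. Although this is the largest change among the 9 genes, 692 probe sets rose by more.

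The next enzyme, phosphoglucose isomerase, converts glucose 6-phosphate to fructose 6-phosphate. Its gene Pgi read 10.80, 10.94 and 10.76 in the mutant, against 10.65, 10.86 and 10.87 in the control. The groups overlapped. The change of 0.04 ± 0.10 was not called (limma adjusted p = 0.841), and its 95% interval ran from -0.19 to 0.27 on the log2 scale.

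Phosphofructokinase, the product of Pfk, catalyses the committed and most regulated step. Pfk read 9.36, 9.54 and 9.58 in the mutant, against 9.59, 9.88 and 9.99 in the control. The groups did not overlap, but the highest mutant array and the lowest control array nearly met. The change of -0.33 ± 0.12 did not pass the test (limma adjusted p = 0.115). It passed without the first control array (-0.44, adjusted p = 0.0400).

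Aldolase splits fructose 1,6-bisphosphate into triose phosphates, and the probe sets of its gene Ald1 did not read alike. The brighter one, 1631993_s_at, read 11.38, 11.60 and 11.42 in the mutant, against 11.05, 11.20 and 10.52 in the control. The mutant arrays were higher, and the third control array was far lower than the other control arrays. The change of 0.54 ± 0.17 was just short of the threshold (limma adjusted p = 0.0581). Leaving out the second control array made it pass (0.68, adjusted p = 0.0255), and leaving out the third gave 0.34 (adjusted p = 0.0899).

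The other Ald1 probe set, 1633473_s_at, read 11.16, 11.10 and 11.11 in the mutant, against 11.01, 11.17 and 11.09 in the control. These groups overlapped, and the change was 0.04 ± 0.09 (limma adjusted p = 0.836). The brighter probe set minus the other was 0.22, 0.50 and 0.30 on the mutant arrays, against 0.04, 0.03 and -0.56 on the control arrays. This within-array difference was 0.51 larger in the mutant, with no overlap (2-sided exact permutation p = 0.1, the smallest that 3 against 3 arrays allow). It was 0.31 without the third control array. It was examined after the values had been seen. The sources used here do not say which Ald1 transcripts each probe set reads, and both are of a type whose name marks probes shared between transcripts.

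Triose phosphate isomerase, encoded by Tpi, interconverts the triose phosphates so that both enter the later steps. Tpi read 11.75, 11.95 and 12.00 in the mutant, against 12.21, 12.29 and 12.26 in the control. All mutant arrays were lower, with the first lowest. Tpi fell by 0.36 ± 0.10 on the log2 scale (change -0.36, limma adjusted p = 0.0353), a ratio of 0.782.

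The remaining enzymes carry triose phosphate to phosphoenolpyruvate, and 4 of them were measured here. All 4 had every mutant array below every control array, beside 21.3% of all probe sets, and 3 fell, beside 13.4% of all genes. This grouping was not planned. The same genes are part of the counts given above, so this is no separate evidence. Gapdh1 encodes a glyceraldehyde 3-phosphate dehydrogenase, the enzyme that produces the NADH of glycolysis. It read 12.33, 12.63 and 12.74 in the mutant, against 12.93, 13.02 and 13.12 in the control. The change was -0.46 ± 0.12 (limma adjusted p = 0.0308).

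Phosphoglycerate kinase, the product of Pgk, makes the first ATP that the pathway regains. Pgk read 10.31, 10.60 and 10.72 in the mutant, against 11.00, 10.97 and 11.15 in the control. It had the largest fall of the 9 genes, -0.49 ± 0.12 (limma adjusted p = 0.0245), a ratio of 0.712 with a 95% confidence interval of 0.586 to 0.864. In all, 1323 probe sets fell by more.

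Pglym78 encodes a phosphoglycerate mutase, which moves the phosphate group within 3-phosphoglycerate. Pglym78 read 9.70, 9.48 and 9.62 in the mutant, against 10.01, 9.83 and 10.14 in the control. The change was -0.39 ± 0.11 (limma adjusted p = 0.0394). Unlike for Tpi, Gapdh1 and Pgk, the first mutant array was the highest of the mutant arrays here, and the change without it was larger in size, -0.44 (adjusted p = 0.0539).

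Enolase, the product of the gene Eno, forms phosphoenolpyruvate. Eno read 12.23, 12.45 and 12.50 in the mutant, against 12.61, 12.70 and 12.79 in the control. No mutant array reached the lowest control array, but the change of -0.31 ± 0.10 was not called (limma adjusted p = 0.0767). It was called with arrays centred on their medians (-0.35, adjusted p = 0.0400) and with a trended robust variance (adjusted p = 0.0424).

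**Figure D2:**
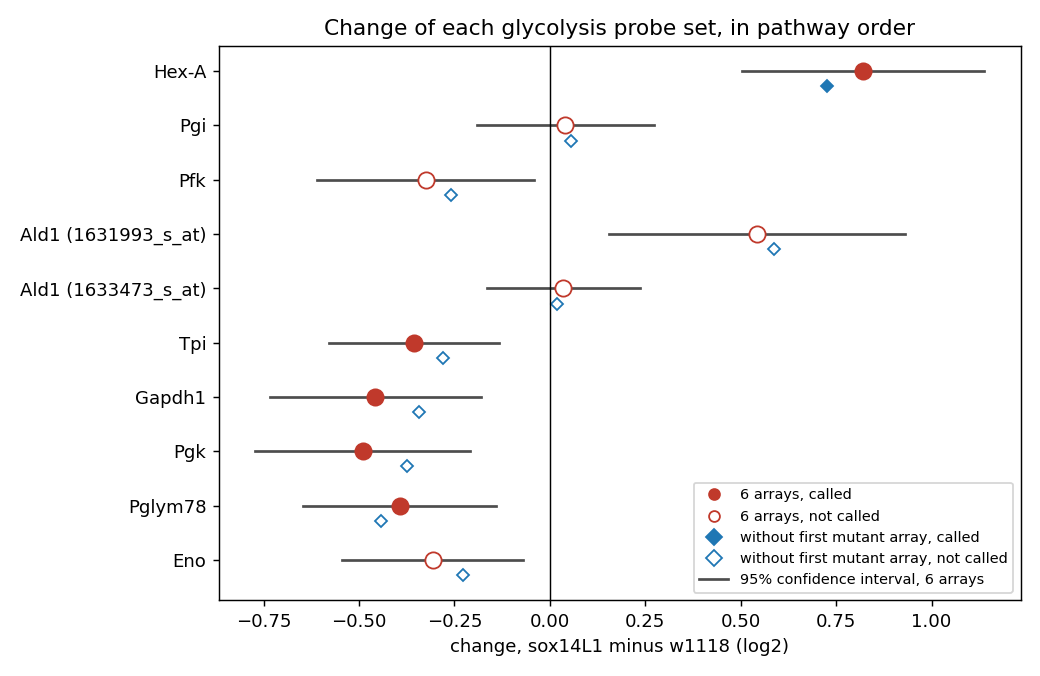
Change of each glycolysis probe set, sox14L1 minus w1118 (horizontal axis, log2), from the first enzyme of the pathway at the top to enolase at the bottom. Circles are changes over 6 arrays with 95% confidence intervals, diamonds are changes without the first mutant array, and filled symbols were called. Hex-A is at 0.82, Tpi to Eno lie between -0.49 and -0.31, and of the diamonds the one filled is that of Hex-A.

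The plot of the changes in pathway order places Hex-A at one end and Pgk at the other. Differences taken within each array are free of any constant shift between arrays. Hex-A minus Pgk was 0.23, -0.14 and -0.67 on the mutant arrays, against -1.40, -1.37 and -1.74 on the control arrays. The mutant exceeded the control by 1.31 in this difference, with no overlap. Hex-A minus Gapdh1 was -1.79, -2.16 and -2.68 in the mutant, against -3.33, -3.42 and -3.71 in the control, so the mutant was 1.28 higher. Against the brighter Ald1 probe set the groups overlapped, with means of -1.11 ± 0.27 in the mutant and -1.39 ± 0.25 in the control (SD, n = 3 each). These pairs were chosen with the values known and were given no test. Hex-A was higher and Pgk and Gapdh1 were lower in the mutant without overlap. Their differences therefore could not overlap, and they are no further evidence of a change.

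Arrays of the mutant also differed among themselves along the pathway. For Pfk, Tpi, Gapdh1, Pgk and Eno, 5 of the 10 probe sets, the first mutant array was the lowest of the 3 and the third was the highest, an order seen in 19.3% of all probe sets. Hex-A had the opposite order. These orders were not planned and were picked out with the values known. The first mutant array was the lowest of the 3 for 6 of the 10 probe sets, and for 35.7% of all probe sets. This is the array with the high 18S rRNA signal, and its 3' minus 5' difference of the actin control probe sets was 1.77, against 0.88 and 0.78 on the other mutant arrays and 0.54 to 0.86 on the control arrays. For the eIF-4a control probe sets this difference was 1.82 there, against 1.05 and 0.97 on the other mutant arrays and 0.78 to 1.25 on the control arrays. The part of RNA quality in the falls was not tested.

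The array also carries the manufacturer's control probe sets for GAPDH, which read the 3' end, the middle and the 5' end of a transcript. The annotation used here does not tie them to Gapdh1 or Gapdh2. They did not separate the genotypes. The 3' probe set read 12.74, 13.04 and 12.82 in the mutant, against 12.78, 12.78 and 12.68 in the control (difference 0.12, 2-sided exact permutation p = 0.3). The middle probe set averaged 11.89 ± 0.24 in the mutant and 11.93 ± 0.11 in the control (SD, n = 3 each, exact p = 0.9). The 5' probe set averaged 11.18 ± 0.41 in the mutant and 11.09 ± 0.11 in the control (SD, n = 3 each, exact p = 0.9).

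The probe set of Gapdh1 read lower in the mutant relative to these controls. Whether the controls read Gapdh1 is not known here. If they do, the fall of Gapdh1 was not seen in these other readings of its transcript. Gapdh1 minus the 3' control was -0.41, -0.41 and -0.08 on the mutant arrays, against 0.15, 0.24 and 0.44 on the control arrays, a difference of -0.58 with no overlap (2-sided exact permutation p = 0.1, the smallest possible here). The mutant was lower by a similar amount relative to the middle (-0.41) and the 5' control (-0.54), again with no overlap and exact p = 0.1 each. These differences were added after the values had been seen. They all use the same Gapdh1 values, so they are not separate tests of its fall. The 3' minus 5' difference of GAPDH was 2.02, 1.54 and 1.51 on the mutant arrays, against 1.56, 1.75 and 1.65 on the control arrays. These overlapped, and the means differed by 0.04 (exact permutation p = 1). Without the first mutant array this difference was -0.13.

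**Figure D3:**
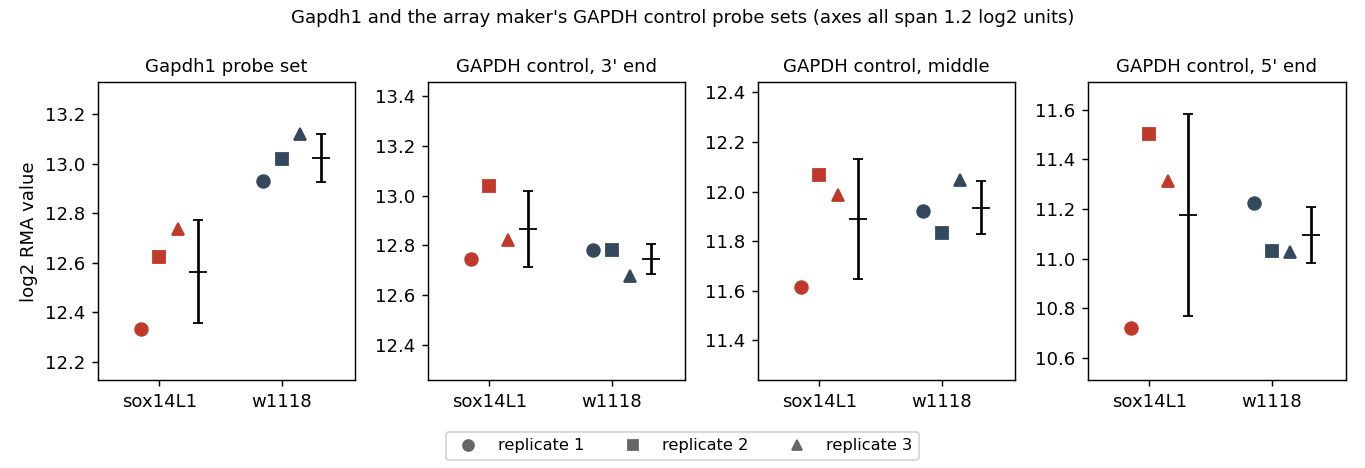
Log2 RMA value of the Gapdh1 probe set and of the manufacturer's GAPDH control probe sets on the 3 sox14L1 arrays (red, left) and the 3 w1118 arrays (dark, right), with symbols for the replicate number and bars for mean ± SD. Gapdh1 separates the genotypes, with the mutant lower, and each of the GAPDH controls overlaps.

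The 9 genes are spread over the genome. Pgi, Pfk and Gapdh1 share the arm 2R with Sox14, and Pgk and Eno lie on 2L. For these 5, an effect of Sox14 and strain differences linked to it on chromosome 2 cannot be told apart. Ald1, Tpi and Pglym78 lie on 3R and Hex-A on the X. Of the 5 genes called, 2 lie on chromosome 2 and 3 elsewhere. A place on another chromosome does not free a gene from strain background, because the history of the strain is not described. Variants linked to Sox14 may also act on genes elsewhere. Whether strain differences on any chromosome contributed to the change of any gene was not tested.

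As a whole, genes of neighbouring carbohydrate pathways were called about as often as other genes. Across 8 lists, 64 genes were measured, of which 7 rose and 6 fell, beside 11.3% and 13.4% of all genes, with a median change of -0.03. By brightest probe set, the largest changes were those of Pepck1 and Mpc1. Pepck1 encodes a phosphoenolpyruvate carboxykinase, which acts against the direction of glycolysis. It read 11.63, 11.97 and 11.30 in the mutant, against 13.67, 13.68 and 13.86 in the control, a change of -2.10 ± 0.16 (limma adjusted p = 4.33e-05). It lies on 2R. Of the other genes for gluconeogenesis, fbp, Pepck2, PCB and G6P were not called, with changes between -0.24 and 0.13.

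Of 4 measured genes at the pyruvate end of the pathway, 2 rose and none fell, beside 11.3% and 13.4% of all genes. Mpc1, which encodes a subunit of the mitochondrial pyruvate carrier, read 10.83, 10.89 and 10.80 in the mutant, against 9.80, 9.95 and 9.75 in the control. The change was 1.01 ± 0.09 (limma adjusted p = 0.000121). Pdk, whose product inhibits pyruvate dehydrogenase by phosphorylating it, rose by 0.66 ± 0.12 (limma adjusted p = 0.00540), and its second probe set rose too. Pyruvate kinase (Pyk) and lactate dehydrogenase (Ldh), the enzymes next in line, had no probe set of their own in the annotation and were not analysed here.

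Some genes that feed or regulate the upper pathway were also called. Pfrx, whose product makes and removes the Pfk activator fructose 2,6-bisphosphate, rose by 0.47 ± 0.13 (limma adjusted p = 0.0366), and was not called without the first mutant array (0.53, adjusted p = 0.0517). Of 10 trehalose and glycogen genes, 2 rose and 1 fell, beside 11.3% and 13.4% of all genes. Pgm1, the phosphoglucomutase gene, rose by 0.53 ± 0.12 (limma adjusted p = 0.0175), and was not called without the first mutant array (adjusted p = 0.0569). UGP, for UDP-glucose pyrophosphorylase, rose by 0.72 ± 0.15 at dim signals of 4.90 to 5.47 in the mutant, against 4.46 to 4.61 in the control. The trehalose transporter gene Tret1-1 fell, with 10.99 ± 0.25 in the mutant and 11.64 ± 0.23 in the control (SD, n = 3 each). Of 8 regulators of sugar, hypoxia and growth responses, 2 fell and none rose, beside 13.4% and 11.3% of all genes. Those that fell were sug, a sugar-responsive zinc finger factor (-0.95 ± 0.18, limma adjusted p = 0.00654), and foxo (-0.53 ± 0.12, adjusted p = 0.0131). The change of ERR, -0.06 ± 0.13, was not called (limma adjusted p = 0.792). Its signals were dim, 6.35 to 6.66 in the mutant and 6.35 to 6.71 in the control, below the array medians.

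**Figure D4:**
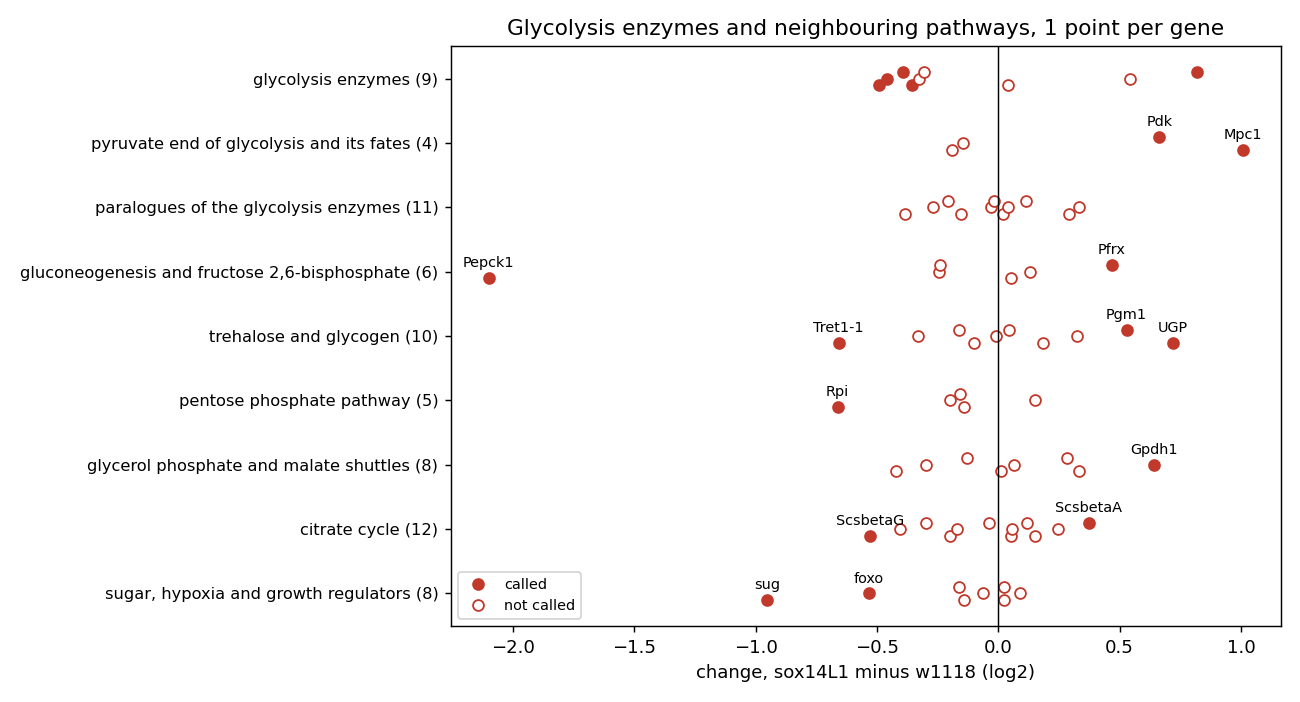
Change of each gene, sox14L1 minus w1118 (horizontal axis, log2), for the 9 glycolysis genes and 8 neighbouring lists, with the number of measured genes in brackets. Each point is the brightest probe set of a gene, filled where called, and vertical offsets only separate points. Pepck1 at -2.10 and Mpc1 at 1.01 are the outermost points.

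Branches of glycolysis showed few changes, to be read beside the 11.3% of all genes that rose and the 13.4% that fell. Of 5 pentose phosphate genes, Rpi, for ribose 5-phosphate isomerase, fell (-0.66 ± 0.11, limma adjusted p = 0.00324) and the other 4 were not called. Of 8 genes of the glycerol phosphate and malate shuttles, Gpdh1, for glycerol 3-phosphate dehydrogenase, rose by 0.64 ± 0.19 (adjusted p = 0.0456). Its other 3 probe sets were not called, and neither was the called one without the first mutant array (adjusted p = 0.0771). Of 12 citrate cycle genes, ScsbetaA rose (0.37 ± 0.10) and ScsbetaG fell (-0.53 ± 0.13). The other 2 probe sets of ScsbetaG fell by more, with changes of -0.99 and -1.14 (limma adjusted p = 0.00133 and 0.0105). Both genes encode beta subunits of succinyl-CoA synthetase. None of 11 measured paralogues of the glycolysis enzymes was called in limma, with 3 at an unadjusted p under 0.05. The brightest were CG7059, a phosphoglycerate mutase homologue (-0.27 ± 0.12), and Hex-t2, a hexokinase gene (-0.15 ± 0.18).

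Markers of tissues that make up the whole animal also differed between the genotypes. Of 17 measured muscle markers, 12 rose and none fell, beside 11.3% of all genes that rose, and 11 rose without the first mutant array. Tm2, a tropomyosin gene, rose by 1.88 ± 0.12 and TpnC73F, a troponin C gene, by 1.15 ± 0.08 in its brighter probe set, while its other probe set was not called (0.24, limma adjusted p = 0.179). The log2 of the summed muscle signal was 14.83 to 14.95 in the mutant, against 14.04 to 14.16 in the control. Of 14 midgut digestive enzymes 9 rose and none fell, with summed signals of 15.30 to 15.63 in the mutant and 13.72 to 13.83 in the control. All 9 lie on 2R, the arm of Sox14. For them, an effect of Sox14 and strain differences linked to it cannot be told apart. Of 5 fat body markers, Apoltp rose and Fbp2 fell, and the summed signal was 16.83 to 16.85 in the mutant and 17.09 to 17.14 in the control. Of 6 blood cell markers 2 rose and 1 fell (10.82 to 10.85 in the mutant, 10.37 to 10.67 in the control), of 4 neuronal markers 1 rose and 1 fell (10.28 to 10.54 in the mutant, 10.22 to 10.31 in the control), and of 6 glue genes 1 rose (14.34 to 16.45 in the mutant, 16.02 to 16.29 in the control). For every glue gene the second mutant array was the lowest mutant array, with Sgs4 at 11.81 there, against 13.87 and 14.01 on the others. Among all genes, 11.3% rose and 13.4% fell. Without the first mutant array, Apoltp, the glue gene Sgs4, the blood cell gene NimC1 and the neuronal gene nSyb were not called (limma adjusted p = 0.138, 0.104, 0.0764 and 0.0937), and the midgut gene etaTry fell (-0.49, adjusted p = 0.0361). RMA signals have no 0, so absence of a marker cannot be read from them. The part of tissue makeup in the changes of Hex-A, Tpi, Gapdh1, Pgk and Pglym78 was not tested.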

How the data were processed

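Whole-prepupa total RNA, biotin-labelled, was measured on Affymetrix arrays of the Drosophila Genome 2.0 design, with 3 arrays per genotype. The deposited values are log2 signals that the authors made, per the submitters' processing notes, with RMA in version 1.1 of Affymetrix Expression Console. No genome build is named in the sources used here. Probe sets were named from the platform annotation (13647 with 1 gene, 402 with several, 4720 with none), and 13544 matched the RefSeq genes of Release 6 plus ISO1 MT, used for symbols and chromosome arms. After 183 control probe sets were left out, 18769 were tested in R 4.3.3 with limma 3.58.1 (functions lmFit and eBayes). The test was 2-sided, and p-values were adjusted over all of them by Benjamini-Hochberg. The fit was tested on simulated independent arrays, where recovery was required only for planted changes larger than that of any member. This does not show how often changes of the size seen here would be called. For counts of genes, the brightest probe set by mean stood for the gene. The members and lists were chosen with earlier results of these data known. The members and the GAPDH controls were named. From each list, names were taken from the 4 called genes with the smallest adjusted p, or the 2 brightest where none was called. For the tissue markers, not all of these were named. ERR, uncalled members of the gluconeogenesis list, pathway enzymes without a probe set and etaTry were named beyond this rule, ERR and etaTry after their values were seen. Single within-array differences were compared by exact permutation of arrays. Alternatives were other scalings, a replicate block, array weights, a trended robust variance, leaving out the dimmest 40% of probe sets, a threshold of 0.01, averaging the Ald1 probe sets and each array left out. The within-array differences of Ald1, Hex-A and Gapdh1 were added after seeing the data. So were the order of the mutant arrays and the counts for the enzymes after Tpi. The number of arrays limits the precision.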

Additional observations from a re-analysis of the deposited data

How the results depend on the processing

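The rise of Hex-A was called in all 13 alternatives (0.73 to 0.97, adjusted p 0.00112 to 0.0203). The falls of Tpi, Gapdh1, Pgk and Pglym78 kept their sign in all 13 and were called in 6, 7, 8 and 7 of them, with adjusted p up to 0.0992, 0.0975, 0.0820 and 0.146. Leaving out single arrays gave 0 to 3 lower and 1 to 2 higher among the member probe sets and equally among the member genes, 1326 to 1673 lower and 1167 to 1595 higher among all probe sets, 4 to 6 lower and 3 to 8 higher among neighbouring pathway genes, 2 to 3 lower and 22 to 25 higher among marker genes, and GAPDH 3' minus 5' differences of -0.13 to 0.13. These fits have fewer arrays. Ald1 made a second rise among probe sets and genes (2) with array weights, quantile normalisation, the dimmest 40% left out and a trended robust variance, and was not called with the mean of its probe sets (0.29, adjusted p = 0.120). The cause was not tested. At a threshold of 0.01, 0 member probe sets and 0 member genes were lower, 963 of all probe sets were higher and 1000 lower, and 2 neighbouring pathway genes were higher and 3 lower. Array weights gave 5 lower marker genes, against 3. The changes of Pgi and Ald1 probe set 1633473_s_at, near 0, turned sign with median centring (-0.0027 and -0.0072). With single arrays left out they ranged from -0.0327 to 0.0770 for Pgi and from -0.0042 to 0.0766 for that Ald1 probe set, with the lowest values without the first control array, and Pgi was also below 0 without the second mutant array (-0.0127). The labels state no pairing of same-numbered arrays. Their deviations from the group means had correlations of 0.173, -0.101 and -0.0234. Those of arrays with unlike numbers ran from -0.264 to 0.259. So few values cannot decide whether the samples were paired. With the replicate block 2 member probe sets (2 genes) were higher, Hex-A and Ald1 (adjusted p = 0.0368), 3 were lower, and Tpi was not called (adjusted p = 0.0539). The planned comparison of Gapdh2 with Gapdh1 was not run, since Gapdh2 had no probe set of its own in the annotation used. Signals of the member probe sets lay between 9.36 and 13.12, above the array medians.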
